A study of Mus musculus with 12 samples.

Results

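The genes described here are the ligands and receptors of the tumor necrosis factor (TNF) superfamily that the array names with a numbered Tnfsf or Tnfrsf symbol. They were chosen by name, with earlier results of these data known. Every gene was taken, among the 27962 gene names of the array, whose symbol begins with Tnfsf or Tnfrsf and a digit. Each was represented by its brightest probe. The choice gave 35 genes with 49 probes, among 41174 distinct probes. One of them, *Tnfsf5ip1*, is now named *Psmg2* and encodes a chaperone of proteasome assembly, so 34 were ligands or receptors. *Tnfrsf19l*, *Tnfrsf7* and *Tnfsf7* are now named *Relt*, *Cd27* and *Cd70*.

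The cells were C57MG, an established line of mouse mammary epithelial cells, and they were exposed for 24 h to recombinant human Rspo2 at 100 ng/ml, to recombinant mouse Wnt3a at 100 ng/ml, to both proteins at those concentrations, or to bovine serum albumin (BSA), the carrier of the recombinant proteins. Every group, the control included, was kept during the treatment in medium without serum or insulin, and all data are from 1 cell line. Each group had 3 monolayers, described by the labels as biological replicates, and the RNA of each was hybridized to its own array, for 12 arrays in all. The comparisons ask how each protein alone and the combination altered the RNA of these genes, and whether the effect of the combination exceeded the sum of the single effects.

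Ligands of this family are trimers, mostly anchored in the membrane, that bind and cluster receptors on the same or neighboring cells. Some receptors carry a death domain, which can start caspase activation, while others recruit TRAF adaptors that lead to NF-κB and kinase signaling. A further group binds ligand without passing on a signal and acts as decoys. The family is known mostly from lymphocytes and myeloid cells, although epithelial cells express several receptors, and in the mammary gland the ligand *Tnfsf11* and its receptor *Tnfrsf11a* are required for growth of the alveoli. Rspo2 strengthens the response of cells to Wnt proteins, which act in large part through β-catenin and the TCF/LEF transcription factors.

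The 75th percentile of intensity, used to scale the arrays, lay between 773.9 and 1146 units, and between 51.28% and 64.15% of the probes were well above background on each array. Values between arrays of the same group correlated across probes with r of 0.989 to 0.996. Each of the 3 slides held arrays of 2 groups, and no slide held BSA beside Wnt3a or the combination. The differences of these 2 groups from BSA were therefore taken between slides. Of 8 epithelial markers, *Krt14*, *Trp63* and *Krt8* were well above background on all 12 arrays and *Krt5* on 10, while *Krt18* was so on 3, *Epcam* and *Krt19* on 2 each and *Cdh1* on 0. All 4 mesenchymal markers (*Vim*, *Fn1*, *Cdh2* and *S100a4*) were well above background on all 12. Among markers of cells of the blood, *Ptprc*, *Itgam*, *Adgre1*, *Cd79a* and *Ms4a1* were each above background on 1 array and *Cd3g* and *Cd8a* on 0, whereas *Cd68* was above it on 12, *Cd3e* and *Csf1r* on 11 and *Cd4* on 5. *Cdh5*, an endothelial marker, was above background on 12 arrays, *Pecam1* on 1 and *Kdr* on 0. In RNA from whole cultures, fewer cells of a type and less RNA per cell cannot be told apart.

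Of the 35 genes, 15 (42.9%) were detected, which here means a signal well above background on each of the 3 arrays of some group, compared with 55.3% of all probes. Within this set of symbols, detection differed by role. All 4 receptors of the set that were classed as having a death domain were detected. Superfamily receptors under other symbols, not all of them detected, are described below. The 4 were *Tnfrsf1a* (the main TNF receptor), *Tnfrsf10b* (the signaling receptor for *Tnfsf10*, or TRAIL), *Tnfrsf21* and *Tnfrsf25* (the receptor for *Tnfsf15*). Of 14 other receptors 6 were detected, of 4 decoy or soluble receptors 2, and of 12 ligands 2. The other detected receptors were *Tnfrsf12a* (which binds *Tnfsf12*, or TWEAK), *Tnfrsf13c* (a receptor of B cells for *Tnfsf13b*, or BAFF), *Tnfrsf19l*, *Tnfrsf1b* (which also binds TNF), and *Tnfrsf4* and *Tnfrsf9* (costimulatory receptors of T cells). The detected decoys were the mouse TRAIL receptors *Tnfrsf22* and *Tnfrsf23*, and the detected ligands were *Tnfsf9*, which binds *Tnfrsf9*, and *Tnfsf13* (APRIL).

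With the exception of *Tnfrsf13c*, the 15 detected genes were well above background on all 12 arrays. Intensities of *Tnfrsf13c* lay between 21.79 and 162.5 units and were above background on 8 arrays, 3 of them with Wnt3a. Among the 20 genes that were not detected, 8 were above background on 0 arrays: *Tnfrsf11a* (the receptor for *Tnfsf11*, or RANKL), *Tnfrsf17*, *Tnfrsf19*, *Tnfrsf26*, *Tnfrsf8* and the ligands *Tnfsf12*, *Tnfsf4* and *Tnfsf8*. The other 12 were above it on some arrays. These were *Tnfrsf14* on 5 arrays, *Tnfsf13b* on 4, *Tnfrsf18* and *Tnfsf11* on 3 each, *Tnfrsf13b*, *Tnfrsf7*, *Tnfsf15* and *Tnfsf7* on 2 each, and *Tnfrsf11b* (osteoprotegerin, a soluble receptor), *Tnfsf10*, *Tnfsf14* and *Tnfsf18* on 1 each. These readings were unevenly spread, since 9 of the 20 undetected genes were above background on BSA replicate 1 and 8 on replicate 1 of the combination, compared with 0 to 3 on each other array. The 2 TRAIL decoy receptors and *Tnfrsf10b* were thus measured without detectable *Tnfsf10*, whose intensities lay between 4.038 and 26.01 units. The same held for *Tnfrsf12a*, whose intensities lay between 19480 and 41180 units, and its ligand *Tnfsf12*, between 3.388 and 12.08 units. *Tnfsf10* and *Tnfsf12* had 1 probe each, so a failing probe and absent RNA cannot be told apart. In 19 ligand and receptor pairs known for these genes, both partners were detected in 1, *Tnfsf9* with *Tnfrsf9*. The receptor alone was detected in 7 pairs, the ligand alone in 2 and neither in 9.

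**Figure D1:**
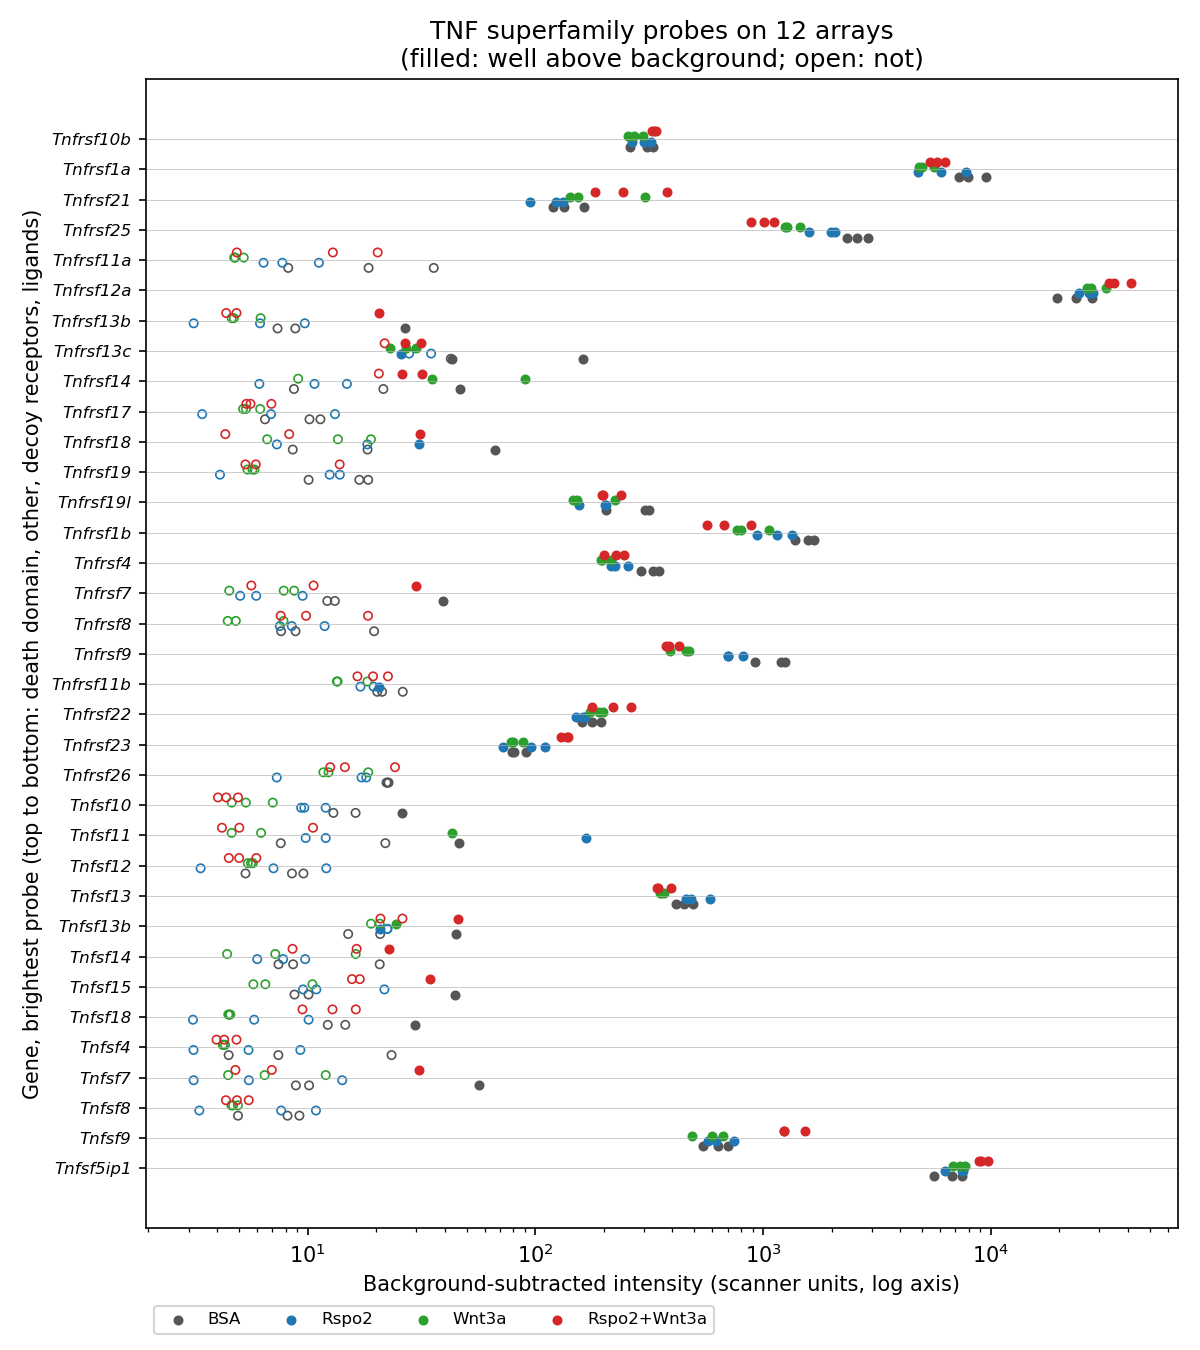
Background-subtracted intensity of the brightest probe of each of the 35 genes on the 12 arrays (log axis, scanner units), with colors for the 4 treatment groups; filled points are well above background and open points are not. Genes are ordered by role and name, since levels of different probes are not comparable; the 15 detected genes include 2 of 12 ligands, and the open points are mostly those of undetected genes.

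With Rspo2 plus Wnt3a the RNA of 3 receptors, *Tnfrsf9*, *Tnfrsf25* and *Tnfrsf1b*, was lower than with BSA, and that of 1 ligand, *Tnfsf9*, was higher. A gene is described as changed where its adjusted p was under 0.05 and the difference reached 2-fold, and as having risen or fallen where the adjusted p alone was met. The 4 changed genes were 26.7% of the 15 tested, whereas 5.08% of all 22750 detected probes were changed in this comparison (1.28% higher and 3.79% lower). By adjusted p alone 7 members rose and 5 fell, beside 39.2% of all probes (21.9% rose and 17.3% fell). The median log2 difference of the 15 genes was -0.22, and that of all detected probes was 0.043. Without *Tnfsf5ip1* the share changed was 28.6% and the median -0.24. All BSA arrays were on the first slide and all combination arrays on the third. With slide as a term *Tnfrsf1b* and *Tnfsf9* lost their call (adjusted p = 0.252 and 0.203), and 500 of all probes were changed instead of 1155.

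The 250 bases upstream of the annotated start are shown for the 3 lowered receptors, because their RNA moved together and because Wnt signaling and TNF signaling act on known promoter motifs. The sequences are from RefSeq on build GRCm38.p6 and read 5′ to 3′ on the strand of the gene. Where RefSeq gives a gene several starts, the one with a match is shown. *Tnfrsf9* and *Tnfrsf25* each had another start, not shown, with 0 matches in the same window. Capitals mark a match to one of the motifs searched on both strands: the TCF/LEF core CTTTGA, 2 forms of the NF-κB consensus, or the interferon-stimulated response element (ISRE), the last 2 motifs of 10 letters each. No entry was matched for *Tnfsf9*.
Tnfrsf9 (chr4:150919905-150920154, plus strand): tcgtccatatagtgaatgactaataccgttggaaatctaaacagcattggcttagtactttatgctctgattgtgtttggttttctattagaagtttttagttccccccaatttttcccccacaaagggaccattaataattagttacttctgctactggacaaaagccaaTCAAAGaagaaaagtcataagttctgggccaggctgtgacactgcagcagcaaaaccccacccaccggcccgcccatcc
Tnfrsf25 (chr4:152115684-152115933, plus strand): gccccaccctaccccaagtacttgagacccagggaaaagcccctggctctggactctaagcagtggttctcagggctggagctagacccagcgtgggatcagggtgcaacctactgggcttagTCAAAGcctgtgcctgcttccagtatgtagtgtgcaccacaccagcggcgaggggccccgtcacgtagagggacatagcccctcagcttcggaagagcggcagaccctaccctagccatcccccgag
Tnfrsf1b (chr4:145246871-145247120, minus strand): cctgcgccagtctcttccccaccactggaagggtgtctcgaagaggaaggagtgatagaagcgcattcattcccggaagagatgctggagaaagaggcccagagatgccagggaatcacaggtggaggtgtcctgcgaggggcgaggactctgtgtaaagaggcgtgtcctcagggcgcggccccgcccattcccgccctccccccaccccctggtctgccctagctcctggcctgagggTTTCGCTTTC
In the upstream bases of *Tnfrsf9* the reverse complement of the TCF/LEF core lay 79 to 74 bases before the start, and in those of *Tnfrsf25* it lay 127 to 122 bases before it. In those of *Tnfrsf1b* an ISRE match on the reverse strand filled the last 10 bases, and the motifs searched did not overlap there. Of 32851 promoters in the table, 13.8% held the TCF/LEF core in the same window, 0.225% the NF-κB motif and 3.0% the ISRE. Counted by gene, with a match at any of its starts, the shares of all 27025 genes were 15.8%, 0.263% and 3.5%. Of 26 family genes with an entry, counted in the same way, 5 held the TCF/LEF core, 0 the NF-κB motif and 4 the ISRE, and of 11 detected ones 3, 0 and 1. The detected genes with the core were *Tnfrsf9*, *Tnfrsf25* and *Tnfsf13*. The last did not pass the test with the combination (-0.22, adjusted p = 0.104). The window of *Traf1*, an adaptor described below whose RNA was also lower, held no match. A match describes letters in this window and is not a measurement of binding.

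**Figure D2:**
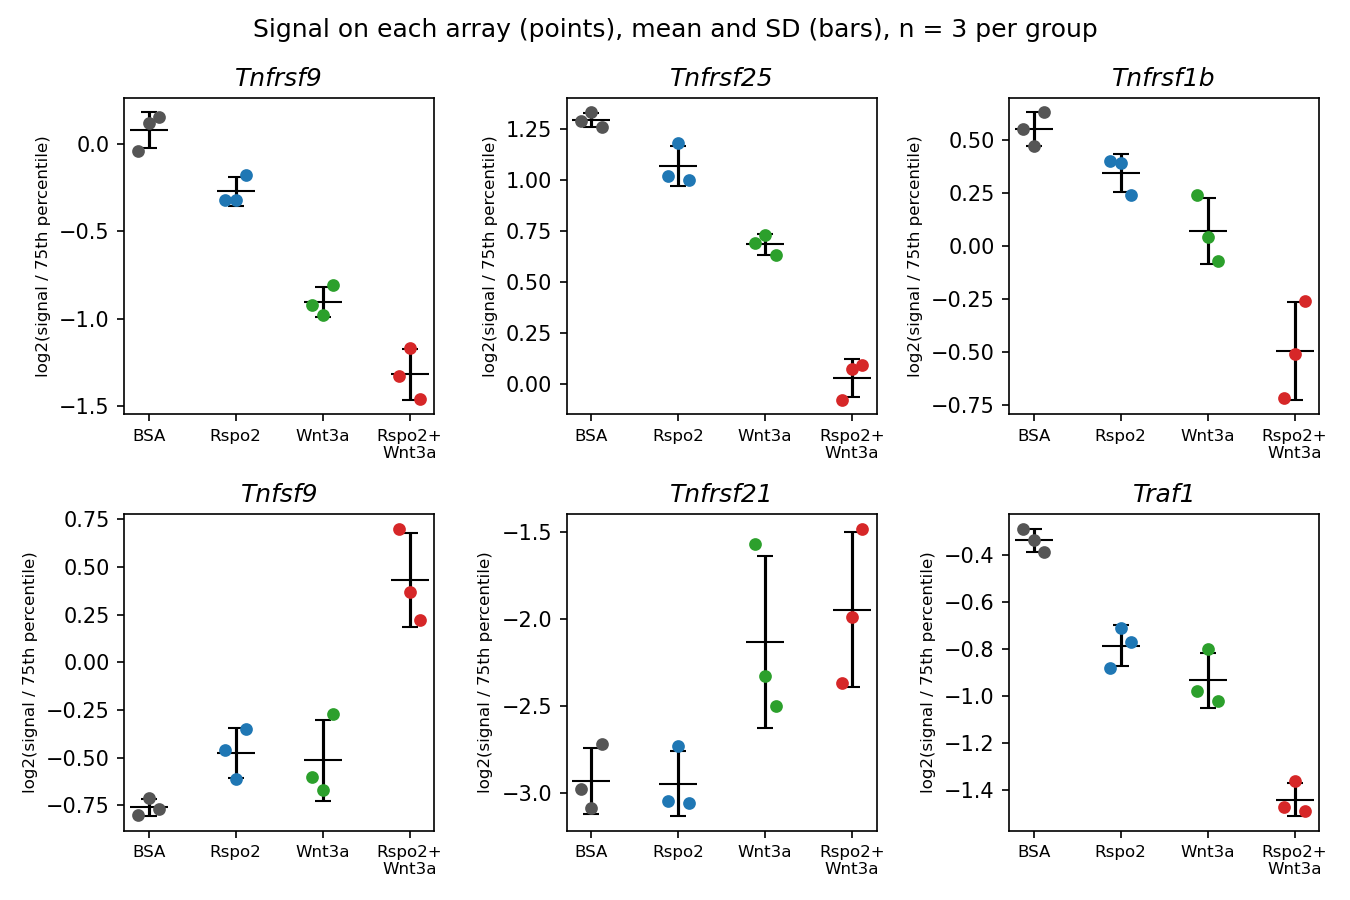
Signal of 6 genes on each array, as log2 of the signal over the 75th percentile of the array; points are arrays (n = 3 per group), horizontal bars are means and vertical bars are SD. Tnfrsf9, Tnfrsf25, Tnfrsf1b and the adaptor Traf1 are lowest with the combination, Tnfsf9 is highest with it, and for Tnfrsf21 the Wnt3a and combination arrays overlap.

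*Tnfrsf25*, which couples through its death domain to both caspases and NF-κB, was the death domain receptor that changed. On the log2 scale relative to the 75th percentile, which is used for all values by array that follow, its signal was 1.29, 1.33 and 1.26 on the BSA arrays and 1.02, 1.18 and 1.0 with Rspo2. It was 0.69, 0.73 and 0.63 with Wnt3a and -0.08, 0.07 and 0.09 with both. The 4 groups did not overlap, and they descended from BSA to Rspo2, Wnt3a and the combination. The difference between the combination and BSA was -1.27 ± 0.08 (SE, adjusted p = 1.23e-06), which is 2.41-fold lower. Wnt3a alone lowered it by less than 2-fold (log2 difference -0.61, adjusted p = 0.000649), and the value with Rspo2 alone was -0.23 (adjusted p = 0.0647). The combination was also below Wnt3a (log2 difference -0.66, adjusted p = 0.000759). Differences within slides were -0.27 for Rspo2 less BSA on the first slide, -0.38 for Wnt3a less Rspo2 on the second and -0.61 for the combination less Wnt3a on the third.

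The other death domain receptors did not change by 2-fold. *Tnfrsf21*, which can trigger apoptosis in neurons and lymphocytes, measured -2.98, -3.09 and -2.72 with BSA, -3.05, -2.73 and -3.06 with Rspo2, -1.57, -2.33 and -2.50 with Wnt3a, and -2.37, -1.99 and -1.48 with both. It was higher on all arrays that received Wnt3a than on those that did not. It rose by 0.80 ± 0.26 with Wnt3a (adjusted p = 0.038) and by 0.99 ± 0.26 with both (adjusted p = 0.0123), 1.98-fold in the latter case. With both, the log2 difference of its second detected probe was 1.11 (adjusted p = 0.00161), which met the 2-fold limit. Leaving out BSA replicate 3, or replicate 1 or 2 of the combination, put the first probe past that limit as well (1.09, 1.20 and 1.01), whereas without replicate 3 of the combination it gave 0.75. The call was lost under normexp background correction, a model-based subtraction (0.54, adjusted p = 0.556). It was also lost with slide as a term (1.39, adjusted p = 0.313) and with all probes averaged (0.52, adjusted p = 0.236). That average took in a further probe that was not detected, of median intensity 4.97 units and above background on 1 array. The mean signal of that probe was -7.35 with BSA, -5.5 with Wnt3a (SD 2.3) and -7.88 with both. *Tnfrsf1a* fell with the combination (-0.39 ± 0.12, adjusted p = 0.0265) and *Tnfrsf10b* rose (0.26 ± 0.08, adjusted p = 0.0275). Of 23 alternatives the call of *Tnfrsf1a* was lost in 8. That of *Tnfrsf10b* was lost in 11, and its sign turned in 1.

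*Tnfrsf9*, known as CD137 and best studied as an inducible costimulatory receptor of T cells, had the largest fall with the combination among the members that passed the test. Its signal was -0.04, 0.12 and 0.15 with BSA, -0.32, -0.32 and -0.18 with Rspo2, -0.92, -0.98 and -0.81 with Wnt3a, and -1.33, -1.17 and -1.46 with both. No 2 groups overlapped. The combination was 2.63-fold below BSA (log2 difference -1.40 ± 0.10, adjusted p = 2.82e-06). It fell with Rspo2 (-0.35 ± 0.10, adjusted p = 0.0348) and with Wnt3a (-0.98 ± 0.10, adjusted p = 0.000149), and it was lower with the combination than with Wnt3a (-0.41, adjusted p = 0.0348). The Wnt3a value lay just under the 2-fold limit and passed it when BSA replicate 1 or Wnt3a replicate 3 was left out (-1.04 and -1.03). Within slides the successive differences were -0.40, -0.70 and -0.51. A second probe for *Tnfrsf9* was above background on 0 arrays, and when both probes were averaged the difference between the combination and BSA was -0.22 (adjusted p = 0.23).

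*Tnfrsf1b*, which binds TNF without a death domain and signals through TRAF2, showed a smaller fall, which was not past the limits under every alternative. Its signal was 0.55, 0.47 and 0.63 with BSA, 0.40, 0.39 and 0.24 with Rspo2, 0.24, 0.04 and -0.07 with Wnt3a, and -0.72, -0.51 and -0.26 with both. The groups adjoined, with the lowest Rspo2 array and the highest Wnt3a array both at 0.24, and the combination stood apart below them. The combination was 2.06-fold lower than BSA (log2 difference -1.05 ± 0.12, adjusted p = 0.000119). Wnt3a alone lowered it by less than 2-fold (-0.48, adjusted p = 0.0136), and the combination was below Wnt3a (-0.57, adjusted p = 0.0256). Without replicate 1 of the combination the difference from BSA was -0.93, under normexp background correction it was -0.97 and with its probes averaged -0.65, all less than 2-fold, and with slide as a term it was -0.75 (adjusted p = 0.252). A second probe, above background on all 12 arrays, gave -0.26 (adjusted p = 0.0735).

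Among the remaining receptors, *Tnfrsf12a*, whose ligand TWEAK acts on growth and wound repair, measured 4.36, 4.61 and 4.46 with BSA, 4.78, 4.80 and 5.08 with Rspo2, 4.88, 5.15 and 5.32 with Wnt3a, and 5.45, 5.18 and 4.97 with both. Every treated array was above every BSA array, although of the treated arrays only Rspo2 replicate 1 shared the slide of the BSA arrays. *Tnfrsf12a* rose with Wnt3a (0.64 ± 0.15, adjusted p = 0.00867) and with the combination (0.73 ± 0.15, adjusted p = 0.00324, or 1.65-fold), and its value with Rspo2 was 0.42 (adjusted p = 0.0747). Each of these rises lost its call in 2 of 23 alternatives (lowest values 0.33 and 0.27). *Tnfrsf4*, or OX40, measured -1.71, -1.71 and -1.72 with BSA and -2.01, -1.97 and -1.88 with Rspo2. It measured -2.07, -1.97 and -2.05 with Wnt3a and -2.06, -2.25 and -2.1 with both. All treated arrays were lower than the BSA arrays, and the gene fell by less than 2-fold in each comparison with BSA. The differences were -0.24 for Rspo2 (adjusted p = 0.048), -0.32 for Wnt3a (adjusted p = 0.00905) and -0.42 ± 0.07 for the combination (adjusted p = 0.00134). The Rspo2 value turned to 0.14 under normexp background correction. *Tnfrsf19l* had values of -0.29, -0.30 and -0.26 against BSA with Rspo2, Wnt3a and both, none past the test (lowest adjusted p = 0.119).

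*Tnfrsf13c*, which supports survival of B cells, was above background on 8 arrays only and varied widely among the BSA arrays (SD 1.24). Its signal was -2.55, -4.75 and -4.65 with BSA, -4.87, -4.98 and -4.94 with Rspo2, -5.06, -5.07 and -4.74 with Wnt3a, and -5.14, -4.93 and -5.60 with both. BSA replicate 1 stood far above the other 11 arrays, and the other 2 BSA arrays lay close to the treated ones. The difference between the combination and BSA was -1.24 ± 0.46 (adjusted p = 0.0543), with a 95% interval of -2.26 to -0.22. Without BSA replicate 1 it was -0.52 (adjusted p = 0.0456). Without BSA replicate 2 it was -1.63 (adjusted p = 0.0262) and without replicate 3 it was -1.58 (adjusted p = 0.0349).

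Both detected decoy receptors rose with the combination, by less than 2-fold. *Tnfrsf23* measured -3.55, -3.86 and -3.57 with BSA, -3.42, -3.60 and -2.84 with Rspo2, -3.49, -3.30 and -3.18 with Wnt3a, and -2.87, -2.78 and -2.94 with both. The combination arrays were above all BSA and Wnt3a arrays, with 1 Rspo2 array among them. The difference from BSA was 0.80 ± 0.17 (adjusted p = 0.00468, or 1.74-fold). *Tnfrsf22* rose with Wnt3a (0.44, adjusted p = 0.0162) and with the combination (0.40 ± 0.12, adjusted p = 0.0197), and its value with Rspo2 was 0.09 (adjusted p = 0.601). Of 23 alternatives the call of *Tnfrsf23* with the combination was lost in 2 (lowest value 0.23). That of *Tnfrsf22* was lost in 6 with Wnt3a and in 8 with the combination (lowest values 0.06 and 0.04).

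Of the 2 detected ligands, *Tnfsf9* rose while its receptor *Tnfrsf9* fell. *Tnfsf9* measured -0.80, -0.71 and -0.77 with BSA, -0.46, -0.61 and -0.35 with Rspo2, -0.60, -0.67 and -0.27 with Wnt3a, and 0.70, 0.37 and 0.22 with both. The single treatments overlapped each other just above BSA, and all 3 combination arrays stood higher. The combination was 2.28-fold above BSA (1.19 ± 0.14, adjusted p = 0.00011), and it was above Wnt3a alone by 0.94 (adjusted p = 0.003). The values with Rspo2 (0.29, 95% interval -0.02 to 0.59) and with Wnt3a (0.25, 95% interval -0.05 to 0.55) did not pass the test. With slide as a term the difference between the combination and BSA was 0.85 (adjusted p = 0.203), and within slides the successive differences were 0.30, -0.15 and 0.70. The difference from Wnt3a reached 2-fold when Wnt3a replicate 3 or replicate 3 of the combination was left out (1.06 and 1.05).

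*Tnfsf13*, a ligand that supports B cells and plasma cells, behaved otherwise. It measured -1.20, -1.22 and -1.26 with BSA, -0.81, -0.94 and -0.71 with Rspo2, -1.30, -1.14 and -1.17 with Wnt3a, and -1.25, -1.49 and -1.61 with both. Only the Rspo2 arrays stood apart from the others, above them. It rose with Rspo2 (0.41 ± 0.10, adjusted p = 0.0265), while the values with Wnt3a (0.03, adjusted p = 0.86) and with the combination (-0.22, adjusted p = 0.104) did not pass the test. The call with Rspo2 was lost in 8 of 23 alternatives (values between 0.31 and 0.47).

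*Tnfsf5ip1*, the proteasome chaperone, measured 2.57, 2.71 and 2.64 with BSA, 2.89, 2.84 and 3.24 with Rspo2, 3.03, 3.15 and 3.26 with Wnt3a, and 3.37, 3.21 and 3.1 with both. All treated arrays were above the BSA arrays, with which only Rspo2 replicate 1 shared a slide. It rose with Wnt3a (0.51, adjusted p = 0.00897) and with the combination (0.59 ± 0.12, adjusted p = 0.00284), and its second probe gave 0.61 and 0.65 (adjusted p = 0.00234 and 0.000869).

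**Figure D3:**
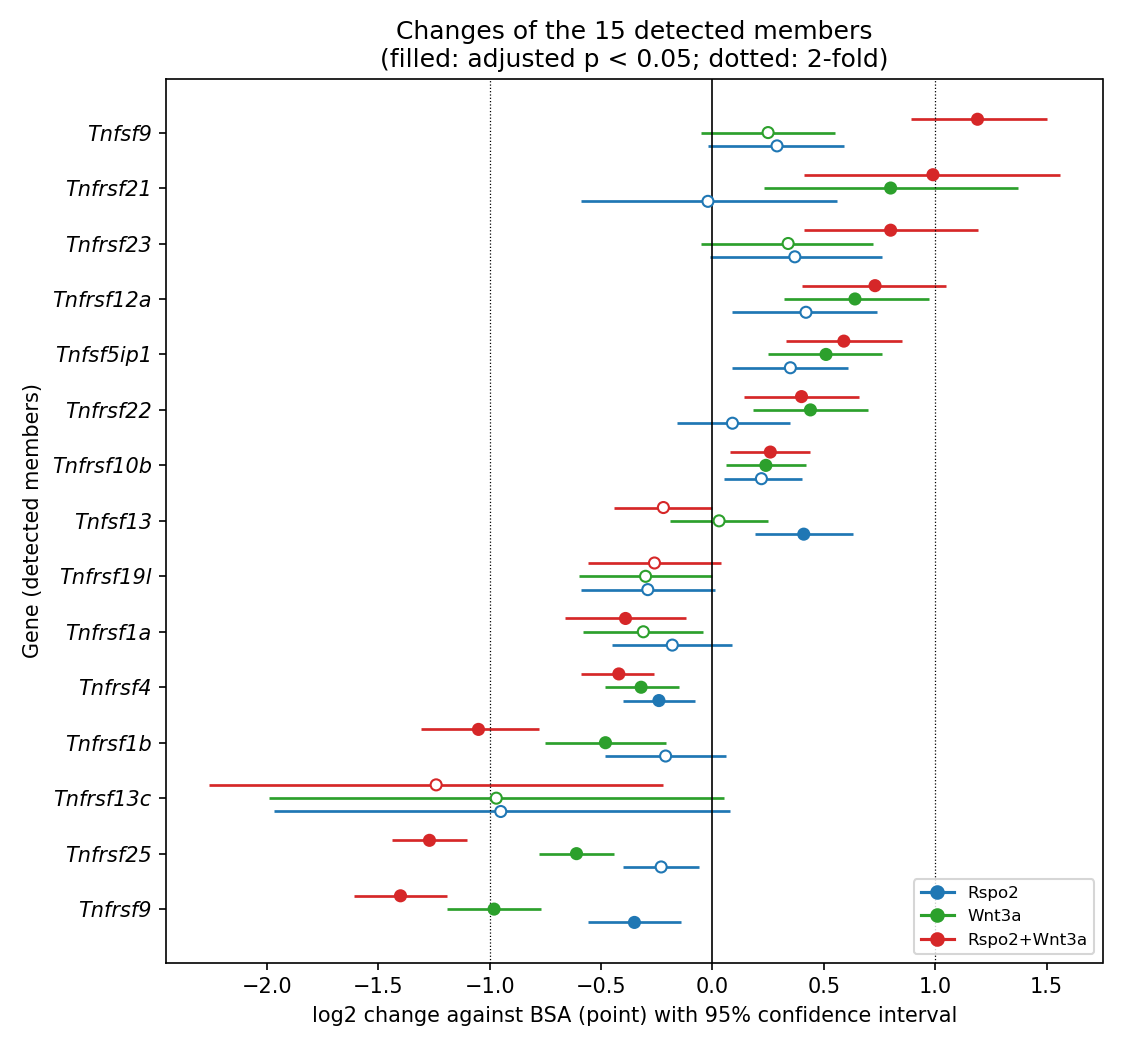
Difference from BSA on the log2 scale (points) with 95% confidence intervals for the 15 detected genes, in 3 colors for Rspo2, Wnt3a and the combination; filled points have an adjusted p under 0.05 and dotted lines mark 2-fold. With the combination Tnfsf9 lies beyond the right line and Tnfrsf9, Tnfrsf25 and Tnfrsf1b beyond the left, and the interval of Tnfrsf13c is the widest.

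With Rspo2 alone 0 of the 15 genes changed in the limma fit, compared with 0.721% of all probes. Of these genes 7 had an unadjusted p under 0.05, beside 7954 of all 22750 probes. The methods' t-test (the plain test named by the study) also called 0. By adjusted p alone 1 rose (*Tnfsf13*) and 2 fell (*Tnfrsf9* and *Tnfrsf4*), a share near the 16.8% of all probes (10.9% rose and 5.93% fell). With Wnt3a alone 0 changed in the limma fit, compared with 2.52% of all probes, and the methods' t-test called 0. An unadjusted p under 0.05 was found for 10 members, beside 9792 of all 22750 probes. Here 5 rose (*Tnfrsf10b*, *Tnfrsf12a*, *Tnfrsf21*, *Tnfrsf22* and *Tnfsf5ip1*) and 4 fell (*Tnfrsf1b*, *Tnfrsf25*, *Tnfrsf4* and *Tnfrsf9*) by adjusted p alone, beside 31.5% of all probes (18.3% rose and 13.2% fell). The 3 comparisons with BSA share the BSA arrays. The median log2 differences of the members were -0.02 with Rspo2 and 0.03 with Wnt3a, and those of all probes 0.013 and 0.

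The combination was set against Wnt3a alone to ask what Rspo2 added. In this comparison 0 members changed in the limma fit, compared with 0.747% of all probes, and the methods' t-test called 0. An unadjusted p under 0.05 was found for 6 members, beside 4196 of all 22750 probes. By adjusted p alone *Tnfsf9* rose and *Tnfrsf25*, *Tnfrsf9* and *Tnfrsf1b* fell, and 4.27% of all probes passed this limit (1.78% rose and 2.49% fell).

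The interaction is the effect of the combination less the sum of the effects of Rspo2 and Wnt3a. By limma 0 members passed both limits, compared with 1.93% of all probes. An unadjusted p under 0.05 was found for 3 members, beside 6658 of all 22750 probes. No other tool was run for the interaction. By adjusted p alone 2 members had an interaction below zero, *Tnfrsf25* (-0.43 ± 0.11, adjusted p = 0.0397) and *Tnfsf13* (-0.66 ± 0.14, adjusted p = 0.0236), beside 8.9% of all probes in either direction and 5.31% below zero. Of 22 alternatives the first call was lost in 17 and its sign turned in 1, and the second call was lost in 10. For *Tnfsf9* the interaction was 0.66, with a 95% interval of 0.23 to 1.08 (adjusted p = 0.0597). For *Tnfrsf9* it was -0.06, with a 95% interval of -0.36 to 0.24, and for *Tnfrsf1b* -0.36 (adjusted p = 0.191).

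Of the 35 genes, 12 had more than 1 probe, with 14 probes beyond those used, and 6 of these, in 5 genes, were detected. Besides *Tnfrsf21*, *Tnfrsf1b* and *Tnfsf5ip1*, described above, *Tnfrsf25* had a second probe of median intensity 29.8 units, above background on 8 arrays. With the combination it gave -1.0 ± 0.41 (adjusted p = 0.0746), in the direction of the first probe, and with Wnt3a -1.18 (adjusted p = 0.0481). It was opposite in sign to the first probe for the combination against Wnt3a (0.18, adjusted p = 0.863) and for the interaction (0.52, adjusted p = 0.58). The probes of *Tnfrsf10b* disagreed. The second, of median intensity 178 units, gave 0.12 with Wnt3a and 0.09 with both (adjusted p = 0.385 and 0.526), whereas its dimmest probe, of median intensity 34.7 units and above background on 8 arrays, gave -1.31 (adjusted p = 0.00192, past both limits) and -0.38 (adjusted p = 0.188), and its interaction was 1.92 (adjusted p = 0.00622). The first probe gave 0.24 and 0.26 in the same comparisons. With Wnt3a the call of the gene was lost in 16 of 23 alternatives, and its sign turned in 1.

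**Figure D4:**
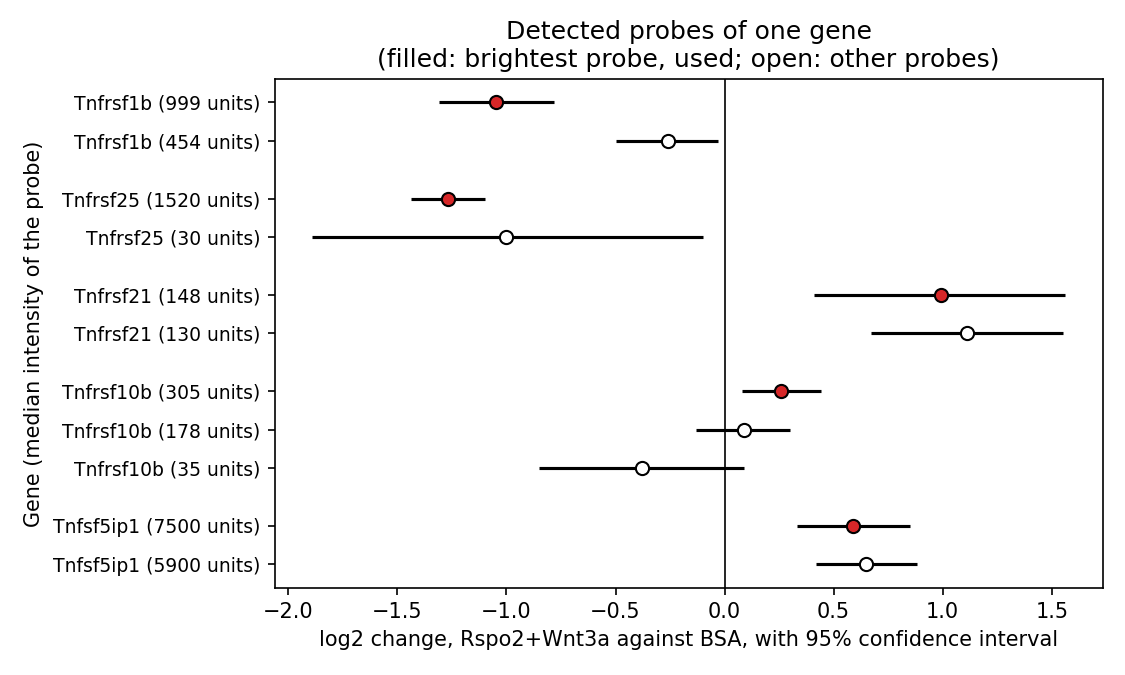
Difference between the combination and BSA on the log2 scale (points) with 95% confidence intervals for every detected probe of the 5 genes with more than 1 detected probe; filled points are the brightest probe, used elsewhere, open points the others, and the label gives the median intensity. The 2 probes of Tnfrsf21 and of Tnfsf5ip1 lie close together, those of Tnfrsf1b lie apart, and the faintest probe of Tnfrsf10b lies on the other side of 0.

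The 3 lowered receptors are all encoded on chromosome 4, according to the annotation of the array, as was noticed after their values were seen. Of the 34 ligands and receptors 9 are on that chromosome, where a cluster of receptor genes is known, and 4 of these were detected: *Tnfrsf1b*, *Tnfrsf9*, *Tnfrsf25* and *Tnfrsf4*. All 4 fell with the combination by adjusted p, compared with 1 of the 11 detected members elsewhere (*Tnfrsf1a*), a count that includes *Tnfsf5ip1*. Across all detected probes of chromosome 4, 16.7% of 1381 fell, beside 17.3% of all probes, and 3.48% were changed and lower, beside 3.79%.

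Members of the superfamily named otherwise were examined from a list of 15, of which *Cd27*, *Cd70* and *Relt* are the genes already described. Of the 12 others 4 were detected: *Fas* (a death receptor), *Ltbr* (the lymphotoxin receptor), *Ngfr* (a neurotrophin receptor) and *Eda2r* (a receptor for ectodysplasin). *Tnf* and *Eda* were above background on 0 arrays, *Cd40lg*, *Edar* and *Ltb* on 1, and *Cd40*, *Fasl* and *Lta* on 2. With the combination 0 of the 4 changed by limma (5.08% of all probes did) or by the methods' t-test. An unadjusted p under 0.05 was found for 1 of them, beside 10905 of all 22750 probes. The gene was *Eda2r*, which rose by 0.59 ± 0.09 (adjusted p = 0.000763), and the median of the 4 was -0.01. *Fas* measured 1.49, 1.54 and 1.57 with BSA, 1.12, 1.10 and 1.38 with Rspo2, 1.08, 1.26 and 1.23 with Wnt3a, and 1.6, 1.5 and 1.46 with both. It was lower with either protein alone (-0.33 and -0.34, adjusted p = 0.0356 and 0.0167) and differed from BSA by -0.01 with both (95% interval -0.22 to 0.19).

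Downstream of the receptors, 30 of 32 adaptors, kinases and other signaling genes on a list were detected, all but *Edaradd* and *Ripk3*. With the combination 1 of 30 changed (3.33%, beside 5.08% of all probes), and the median was -0.06. This was *Traf1*, an adaptor that binds *Tnfrsf9* and *Tnfrsf1b*. Its signal was -0.29, -0.34 and -0.39 with BSA, -0.88, -0.71 and -0.77 with Rspo2, -0.98, -0.80 and -1.02 with Wnt3a, and -1.47, -1.36 and -1.49 with both. The single treatments overlapped each other, lay below BSA and were above the combination. The combination was 2.15-fold below BSA (-1.10 ± 0.08, adjusted p = 5.75e-06), Rspo2 alone gave -0.45 (adjusted p = 0.0135) and Wnt3a alone -0.59 (adjusted p = 0.00101). By adjusted p alone 4 genes of the list rose (*Casp8*, *Ikbkg*, *Mlkl* and *Tank*) and 7 fell (*Adam17*, *Birc3*, *Map3k5*, *Rnf31*, *Tab1*, *Traf1* and *Traf5*), together 36.7% of the 30, a share near the 39.2% of all probes. The falls other than that of *Traf1* were between -0.81 (*Map3k5*, a stress kinase) and -0.33 (*Adam17*, the protease that sheds TNF), and the rises were between 0.21 (*Mlkl*) and 0.43 (*Ikbkg*).

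Of 8 genes named as TNF-induced proteins 6 were detected. With the combination 0 changed by limma (5.08% of all probes did) or by the methods' t-test, and the median was 0.10. An unadjusted p under 0.05 was found for 3 of the 6, beside 10905 of all 22750 probes. By adjusted p *Tnfaip1* (0.33) and *Tnfaip8l1* (0.26) rose and *Tnfaip3*, an inhibitor of NF-κB signaling, fell (-0.41 ± 0.12, adjusted p = 0.0192), which makes 3 of 6 genes beside 39.2% of all probes.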

How the data were processed

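Per the labels, RNA of each of 12 C57MG cultures was labeled with 1 dye and hybridized to a mouse whole-genome oligonucleotide array. The authors processed the array scans with Agilent Feature Extraction 9.5.3.1, and the deposited intensity values were background-subtracted by that software and not scaled between arrays. The deposited table of ratio values, which the authors made by dividing signals by the 75th percentile of each array, served as an alternative and was converted to log2 here. The genome build behind the array's annotation is not given in the sources used here.

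Of 520548 spot values 1327 marked as outliers or uneven were left out; spots of a probe were averaged, and log2 of the mean less log2 of the array's 75th percentile was used. Detection required a signal well above background on each of the 3 arrays of some group (for repeated probes on at least 0.5 of the spots). All 12 arrays were fitted together with limma 3.58.1 (R 4.3.3), and p-values were adjusted over 22750 detected probes by Benjamini-Hochberg; errors are SE. Signal over background and 3 cultures per group limit the precision. The fit was tested on simulated data. Deviations from the group mean correlated between arrays of the same replicate number with r of -0.413 to 0.271. Arrays of different numbers were not compared, so these values cannot decide whether the numbers pair the arrays.

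Each gene was represented by its brightest probe. All members are named; array values are given for members changed in any comparison, filled to 10 with the largest differences between the combination and BSA, and further genes (*Tnfsf13*, *Fas* and *Traf1*) were chosen after their values were seen or because they changed. Members, gene lists, motifs and pairs were chosen with earlier results of these data known, the lists and pairs from general knowledge. Alternatives comprised other background corrections, scalings, filters, tests, the replicate block, slide as a term, averaging of probes and leaving out each array. One marker gene of the lists is not reported here. Figures were drawn with matplotlib 3.10.9.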

Additional observations from a re-analysis of the deposited data

Results flagged for a closer look

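Of the members and listed genes, 4 of the 55 tested (7.27%, beside 8.9% of all probes) had an interaction of Rspo2 and Wnt3a past the adjusted limit, which means that the effect of one protein differed by the presence of the other. The interactions were -0.43 for *Tnfrsf25* (adjusted p = 0.0397) and -0.66 for *Tnfsf13* (adjusted p = 0.0236). They were 0.66 for *Fas* (adjusted p = 0.0166) and -0.55 for *Tnfaip8l1* (adjusted p = 0.0225), a relative of the inhibitor of inflammation *Tnfaip8l2*. The call for *Tnfrsf25* was kept in 4 of 22 alternatives and lost in 17, and with its probes averaged the value turned to 0.05 (adjusted p = 0.926), and its second probe gave 0.52 (adjusted p = 0.58). For *Tnfsf13* the call was lost in 10 of 22 alternatives (values between -0.76 and -0.55), for *Tnfaip8l1* in 11 (between -0.60 and -0.44) and for *Fas* in 4 (between 0.52 and 0.79). For *Tnfsf13* Rspo2 gave 0.41 against BSA, whereas the combination was -0.25 against Wnt3a. For *Fas* the single proteins gave -0.33 and -0.34 and both together -0.01, and for *Tnfaip8l1* the rise with both (0.26) was less than the sum of 0.38 and 0.43. All 4 values were under 2-fold.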

How the results depend on the processing

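Without the 2-fold requirement the counts of members were 3 with Rspo2, 9 with Wnt3a, 12 with both, 4 for the combination against Wnt3a and 2 for the interaction, and those of the lists with both were 1 for genes under other symbols, 11 for adaptors and kinases and 3 for TNF-induced proteins. With Wnt3a the count of 0 became 1 under quantile normalization (*Tnfrsf21*) and under a 75th percentile over probes detected on all arrays (*Tnfrsf9*). It also became 1 with slide as a term (*Tnfrsf9*) and with all probes of a gene averaged (*Tnfrsf21*). That mean for *Tnfrsf21* includes its undetected probe. The count became 2 with no filter on dim probes (*Tnfsf10* and *Tnfsf18*, not detected). With the combination the count of 4 became 2 with slide as a term and under the methods' t-test with Benjamini-Hochberg adjustment (*Tnfrsf9* and *Tnfrsf25* remained in both) and with probes averaged (*Tnfrsf25* and *Tnfsf9* remained). It became 3 under normexp, 6 under quantile normalization (*Tnfrsf21* and *Tnfrsf23* added), and 5 under the 75th percentile over probes detected on all arrays and the deposited table (*Tnfrsf13c* added in both), with no filter (*Tnfsf10* added) and with slide as a random block (*Tnfrsf21* added). Leaving out each array in turn gave 0 to 0 members with Rspo2, 0 to 1 with Wnt3a, 4 to 6 with both, 0 to 1 for the combination against Wnt3a and 0 to 0 for the interaction; the lists gave 0 to 0, 1 to 1 and 0 to 0. The cause of these shifts was not tested. With the replicate number as a block the counts were 0, 0, 4, 0 and 0, and all probes called with both proteins were 1149 instead of 1155. Of 30 results past the adjusted limit, 26 lost their call with slide as a term and 10 with the replicate block. Under normexp 25 lost it and 1 reversed. These results were differences between groups, except for the interactions of *Tnfrsf25* and *Tnfsf13*. With probes averaged *Tnfrsf10b* turned to -0.32 with Wnt3a and -0.01 with both and the interaction of *Tnfrsf25* to 0.05, where the faint probes enter the mean, and under normexp correction *Tnfrsf4* turned to 0.14 with Rspo2. Of 688 values of these 30 results under 23 alternatives (22 for the interactions), 499 kept their direction and call, 185 their direction only and 4 reversed. Normexp correction moved the median of all probes to 0.148 with Rspo2, no filter on dim probes to -0.204 with both, and scaling on probes detected on all arrays to -0.122 with Wnt3a. All probes called with both were 330 under normexp, 500 with slide as a term and 692 under the adjusted t-test. *Traf1* stayed changed under every alternative run, between -1.21 and -1.01.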
